A study of Homo sapiens with 15 samples.

Results

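Ov4Carbo, a carboplatin-resistant cell population derived from the ovarian cancer line OVCAR4, was compared with the parental line it came from. The comparison used 6 of the 15 RNA samples of the study, 3 of Ov4Carbo and 3 of the parental line labelled Ovcar4Parental, chosen by their cell line labels, and all 16604 genes measured. OVCAR4 was established from a high-grade serous carcinoma of the ovary. Ovcar4Parental is labelled sensitive to carboplatin and cisplatin and was the untreated starting point. Ov4Carbo was obtained by keeping OVCAR4 in carboplatin at stepwise higher concentrations until the IC50, a measure of drug tolerance, had risen, by a factor of between 2 and 10 for the resistant lines of the study. The labels give no dose, no duration and no IC50 for Ov4Carbo itself, and do not say whether the drug was present when RNA was taken. All lines were grown in DMEM with 10% serum. Ov4Carbo is a selected population, and the study also holds 2 lines grown from single cells of it, Ov4Carbo4 and Ov4Carbo7, and a cisplatin-selected line, Ov4Cis, with 3 samples each. Those 9 samples entered the model as an estimate of spread and are described only where they bear on Ov4Carbo.

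Carboplatin is a platinum drug that binds DNA and crosslinks its strands. Cells survive it by taking up less drug, exporting or neutralising more of it, repairing the lesions or failing to enter cell death, and lines selected over many passages also drift in identity, for instance between epithelial and mesenchymal states. In an epithelial state cells express cadherin junctions, tight junctions, desmosomes and keratins under transcription factors of the GRHL, OVOL and ELF families. In a mesenchymal state they express fibrillar matrix and contractile proteins, with ZEB, SNAI and TWIST factors acting as repressors of epithelial genes.

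Where 3 values are set against 3 others, those of Ov4Carbo come first and those of the parental line second, each in the order of replicates 1, 2 and 3. Values are log2 RPKM, the base 2 logarithm of reads scaled to gene length and to the size of the library, so levels of different genes can be set side by side. The read depth behind them is unknown, and the spread between the 3 replicates of a line is the only measure of precision. The replicates are described as biological, without stating whether they were separate cultures. The median level was 2.77 in each library and the lowest values lay between -8.18 and -7.68. At such low levels the logarithm depends on an offset chosen by the authors, so a large fold change from near this floor is uncertain in size. For named genes with a mean under -3 in 1 of the 2 lines the change of log2(RPKM + 1) is therefore also given, a scale that makes changes of low genes look smaller. In a bulk RNA sample fewer cells of a type and less RNA per cell cannot be told apart.

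Replicate 1 of Ov4Carbo stood apart. The sample titles carry numbers in 2 series, and this library has a number of the series of Ov4Carbo4 and Ov4Carbo7, whereas replicates 2 and 3 share the series of the parental line and Ov4Cis. The labels do not call the series a batch. The root-mean-square difference per gene was 0.77 between replicates 1 and 2 of Ov4Carbo and 0.72 between replicates 1 and 3, against 0.57 between replicates 2 and 3 and 0.40 to 0.56 among the parental replicates. Every pair of an Ov4Carbo and a parental library differed by more, from 1.04 to 1.20. The counts of the gene lists are therefore also given without replicate 1, which is the comparison within 1 title series. Single genes are given without it where the call against the parental line changed or a called log2 fold change moved by more than 1.5 times.

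Some markers of a serous line were expressed in both lines, though not all at the same level. PAX8, the transcription factor of Müllerian epithelium, stood at 6.05, 6.01 and 5.97 log2 RPKM in the parental replicates and at 6.12, 6.09 and 5.66 in Ov4Carbo. MECOM lay between 6.27 and 7.09 in the 6 libraries, and EPCAM, KRT8 and KRT18 did not fall below 4.94 in any of them. EPCAM, KRT8 and KRT18 were still lower in Ov4Carbo, by -0.66, -0.74 and -0.90, short of a call. KRT7 was called lower (-2.21, SE 0.26). WT1, another marker of serous tumours, was close to the floor in all 6 libraries, from -6.37 to -2.20. Its log2 fold change of 2.38 (SE 0.51, adjusted p = 0.00375) was 0.16 as log2(RPKM + 1). Of 20 leukocyte markers 2 had values and 0 were called. The monocyte marker CD14 lay between -1.42 and -1.28 in Ov4Carbo and between -1.28 and -0.62 in the parental line. Of 12 endothelial markers 6 had values, with sums of 12.3 to 16.6 and 12.5 to 15 RPKM. Called were 1 higher and 1 lower (33.3%, against 12.7% of all genes), and 1 and 2 without replicate 1. Of 16 fibroblast and mesothelial markers 8 had values, with sums of 131 to 145 and 122 to 171 RPKM, nearly all of it MFAP5 and UPK3B, which did not fall below 5.37 log2 RPKM in any of the 6 libraries. Of these 8 markers 1 was called higher and 2 lower (37.5%), with the same counts without replicate 1. Markers without a value were not analysed, and other members are not reported here.

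Of the 16604 genes, 2106 (12.7%) were called, meaning that limma's adjusted p was under 0.05 and the log2 fold change was 1 or more in size. They divided into 956 higher in Ov4Carbo (5.76%) and 1150 lower (6.93%). Without replicate 1 there were 2527 calls (15.2%), 1221 higher (7.35%) and 1306 lower (7.87%), of which 1916 were shared with the calls of all 3 replicates. On the log2(RPKM + 1) scale 790 genes were called (4.76%), 300 higher (1.81%) and 490 lower (2.95%). The 3 values of each line did not overlap for 1955 of the 2106 calls, 11.8% of all genes, and for 6380 genes (38.4%) whether called or not. The median log2 fold change over all genes was 0.03. Many calls concerned genes that neither line expressed much, as 765 of them had a mean under log2 RPKM 0 in both lines. Among genes with a mean of log2 RPKM 1 or more over all 15 samples, 725 of 12037 were called (6.02%), 325 higher (2.7%) and 400 lower (3.32%). Of 475 long intergenic noncoding RNAs 116 were called (24.4%), and of 12964 protein-coding genes 1708 (13.2%).

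Some genes crossed from expressed to nearly silent or back. A mean of log2 RPKM 1 or more in the parental line and under -3 in Ov4Carbo was found for 33 called genes, and the reverse for 13. Among genes switched on, the somatostatin gene SST (ENSG00000157005, chromosome 3), which encodes a peptide hormone, stood at 0.73, -5.31 and -5.11 log2 RPKM in the parental replicates and at 7.79, 9.62 and 8.19 in Ov4Carbo. All 3 Ov4Carbo values lay above the highest parental one, and it rose by 11.77 (SE 1.22, adjusted p = 2.17e-05), or 8.04 as log2(RPKM + 1). PRKCB, encoding protein kinase C beta, went from -4.27, -4.55 and -5.24 to 2.39, 2.19 and 2.28, a rise of 6.97 (SE 0.23, adjusted p = 2.13e-09), or 2.50 as log2(RPKM + 1). EN2, a homeobox factor of the developing midbrain and hindbrain, rose by 7.73 (SE 0.18, adjusted p = 1.46e-10), from between -6.69 and -5.94 to between 1.25 and 1.55, which is 1.84 as log2(RPKM + 1). PLCL1, a phospholipase C-like protein without catalytic activity, rose by 7.44 (SE 0.39, adjusted p = 1.22e-07) with 3 values between 2.27 and 2.46, or 2.58 as log2(RPKM + 1). SELENOP, a secreted selenium carrier, rose by 5.75 (SE 0.43), or 1.86 as log2(RPKM + 1), and its replicate 1 was the highest, at 2.08 against 1.10 and 1.33. The noncoding RNA LINC00645 rose by 6.27 (SE 0.61) and SHISA3, an endoplasmic reticulum protein that attenuates Wnt and FGF signalling, by 8.31 (SE 0.28). As log2(RPKM + 1) their rises were 1.78 and 4.58. In all of these the lines did not overlap.

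Other genes rose from a level already measurable. ROBO1, a receptor for SLIT guidance cues, stood at 0.35, -0.05 and 0.26 in the parental line and at 5.97, 5.59 and 5.83 in Ov4Carbo, 48.8-fold higher (log2 fold change 5.61, SE 0.30, adjusted p = 1.22e-07). ALDH1A1, a retinaldehyde dehydrogenase, went from -0.31, -1.86 and 0.44 to 4.47, 5.33 and 4.72 (5.41, SE 0.46, adjusted p = 4.11e-06). ST3GAL4, a sialyltransferase, was 13.6-fold higher, at 6.02, 6.88 and 7.48 against 3.02, 3.02 and 3.05. SESN3, a stress-induced regulator of mTORC1, rose by 3.99 (SE 0.29) to between 4.88 and 5.69. The matricellular protein gene SPARC and the calcium-binding protein gene CALB1 rose by 4.49 (SE 0.28) and 4.09 (SE 0.39). Leaving out replicate 1 moved ST3GAL4 most among these 6 genes, to 4.15.

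Among genes switched off, ARMCX2, a mitochondrial armadillo protein on the X chromosome, fell from 2.98, 3.27 and 3.05 log2 RPKM to -7.30, -6.78 and -6.88 (log2 fold change -10.09, or -3.25 as log2(RPKM + 1)). VTCN1, which encodes the B7-H4 surface protein of ovarian carcinomas, fell from 4.18, 3.71 and 4.38 to -4.86, -4.77 and -4.12 (log2 fold change -8.68, SE 0.40, adjusted p = 3.82e-08, or -4.12 as log2(RPKM + 1)). EYA2, a transcriptional coactivator of homeobox factors, fell from 4.39, 4.37 and 4.37 to -4.17, -4.40 and -3.47 (-8.39, SE 0.36, adjusted p = 1.81e-08, or -4.35 as log2(RPKM + 1)). SIX2, such a partner factor, fell by 1.39 (SE 0.18). IGFBP5, an insulin-like growth factor binding protein, had a log2 fold change of -8.40 (SE 0.60), TACR1, the receptor of substance P, of -8.34 (SE 0.52), and HS6ST2, which sulfates heparan sulfate, of -8.21 (SE 0.51). As log2(RPKM + 1) the values of these 3 genes were -3.16, -2.52 and -2.87. MT1L, a metallothionein pseudogene whose reads can belong to its near-identical relatives, had -8.70 (SE 0.29), or -2.63 as log2(RPKM + 1). PROM1, the stem cell antigen CD133, fell by 4.96 (SE 0.27), DMD, encoding dystrophin, by 5.50 (SE 0.52), SLC8A1, a sodium-calcium exchanger, by 5.90 (SE 0.50), and FNDC1 by 5.33 (SE 0.50). For all of these the 3 Ov4Carbo values lay below the 3 parental values.

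**Figure D1:**
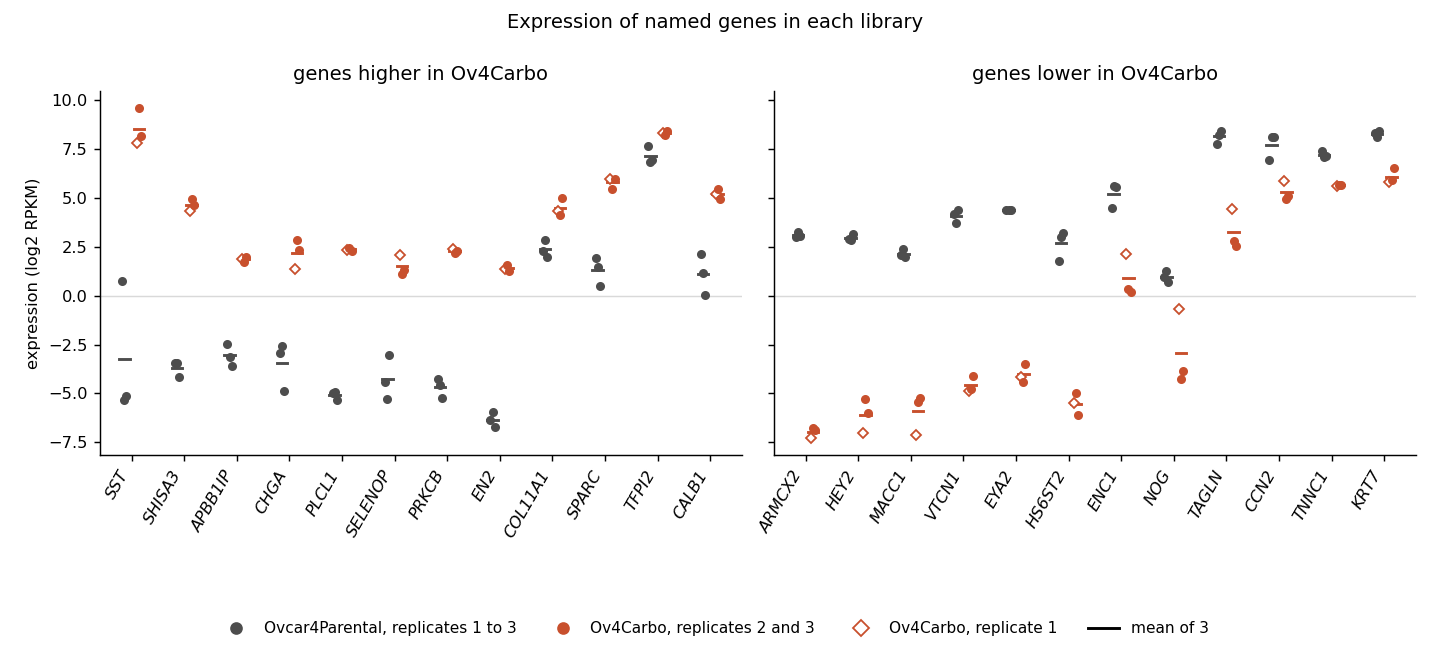
Expression in log2 RPKM (vertical axis) of named genes in each of the 6 libraries; points are replicates, bars the mean of 3, and open diamonds replicate 1 of Ov4Carbo. The Ov4Carbo points lie above all parental points in the left panel and below them in the right one, and for TAGLN, ENC1 and NOG replicate 1 fell less than replicates 2 and 3.

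Abundant transcripts, those with a mean of log2 RPKM 7 or more in either line, were called in 23 of 385 genes (5.97%). Of all genes 12.7% were called, and of those with a mean of log2 RPKM 1 or more 6.02%. Of the 23 abundant genes, 17 were lower in Ov4Carbo. The abundance limit was set after the values were seen. Among the 16 of these with a symbol were genes of the actin cytoskeleton. TAGLN, the actin cross-linker transgelin, stood at 7.78, 8.24 and 8.42 in the parental replicates and at 4.43, 2.81 and 2.54 in Ov4Carbo, 29.6-fold lower (log2 fold change -4.89, SE 0.49, adjusted p = 1.58e-05). CALD1, encoding caldesmon, fell by 1.92 (SE 0.29), the tropomyosin gene TPM1 by 1.38 (SE 0.35), the actin cross-linker ACTN1 by 1.25 (SE 0.16), CSRP1 by 1.31 (SE 0.20) and the cardiac and slow muscle troponin gene TNNC1 by 1.54 (SE 0.30). CCN1 and CCN2, secreted matricellular proteins that are targets of YAP, fell by 1.39 (SE 0.30) and 2.42 (SE 0.47). The laminin chain LAMA3 fell by 1.84 (SE 0.21), the collagen chain COL4A1 by 1.16 (SE 0.14) and the phosphate transporter SLC34A2 by 1.18 (SE 0.16). In the cytoskeletal genes TAGLN, CALD1, TPM1, ACTN1 and CSRP1 replicate 1 was the highest of the Ov4Carbo values, and without it the falls were larger, at 5.47 for TAGLN and 2.29 for CALD1. The 6 named abundant genes that rose were SST, NUPR1, the lysosomal sialidase NEU1, the protease inhibitors TIMP2 and TFPI2, and the ferritin pseudogene FTH1P10, whose reads can belong to FTH1. NEU1 rose by 1.44 (SE 0.16). TIMP2 had a log2 fold change of 1.07 with all replicates and 0.88 without replicate 1 of Ov4Carbo, and FTH1P10 of 1.01 and 0.84, so that neither reached 1 without it. FTH1P10 also stayed under 1 without replicate 3 of Ov4Carbo (0.96) or replicate 2 of the parental line (0.94). TFPI2 had 1.17 (SE 0.31, adjusted p = 0.0118), which missed the adjusted p without replicate 2 of the parental line (1.02).

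Genes of epithelial adhesion and polarity were lower. Of the 37 measured genes of this list 20 fell and 0 rose, with a median log2 fold change of -1.19, where 6.93% of all genes fell and the median was 0.03. Without replicate 1, 19 fell and the median was -1.17. The adhesion receptors fell to different degrees. CDH3, P-cadherin, stood at 4.55, 4.14 and 4.24 in the parental line and at 0.46, 1.47 and 1.91 in Ov4Carbo (log2 fold change -3.03, SE 0.34, adjusted p = 4.22e-05). CDH1, E-cadherin, went from 4.90, 4.66 and 4.33 to 2.35, 2.99 and 3.31, a 3.35-fold fall (-1.75, SE 0.32, adjusted p = 0.00131), so the transcript remained well above the floor. EPCAM stood at 4.94, 5.65 and 5.36 against 6.13, 5.86 and 5.96, a log2 fold change of -0.66 (SE 0.19) that did not reach 1 although the groups did not overlap. The tight junction gene CLDN7 fell by 2.41 (SE 0.42) and the membrane protease ST14, matriptase, by 2.40 (SE 0.28).

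Among the regulators of the epithelial state in this list GRHL1, GRHL2, OVOL1, OVOL2, EHF and ESRP1 fell. The transcription factor ELF3 (-0.15, SE 0.26, adjusted p = 0.69) and the splicing regulator ESRP2 (-0.68, SE 0.27, adjusted p = 0.0727) were not called. GRHL2, a transcription factor of epithelial genes, fell from 3.41, 3.42 and 3.45 to -4.95, -1.68 and -1.28, with replicate 1 the lowest (log2 fold change -6.07, SE 0.72, -4.91 without replicate 1, and -3.25 as log2(RPKM + 1)). OVOL1, a repressor of mesenchymal programmes, fell by 4.52 (SE 0.60), or -1.69 as log2(RPKM + 1). ESRP1, the epithelial splicing regulator, went from 5.48, 5.05 and 4.81 to 1.82, 3.14 and 3.90 (-2.16, SE 0.48). Of the trafficking genes of the list, RAB25, a small GTPase of apical recycling, fell by 6.92 (SE 0.56), from between 2.04 and 3.05 to between -5.94 and -3.30, which is -2.65 as log2(RPKM + 1). AP1M2, the epithelial clathrin adaptor subunit, fell by 1.21 (SE 0.15). In CDH1, CDH3, CLDN7, ESRP1, GRHL2, OVOL1, RAB25 and S100A14, replicate 1 was the lowest Ov4Carbo value.

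ZEB and SNAI repressors bind the E-box CACCTG. The RefSeq promoter windows (GRCh38.p14, 250 bases before to 50 after the first listed start) of 11161 genes of the table were searched on both strands, and 2085 held it (18.7%). It was present in 3 of 9 windows of list members that fell and in 6 of 9 of members that were not called. The other members had no window here. The 150 bases before the start of a strongly reduced gene and of a moderately reduced one are shown 5′ to 3′ on the gene's strand, with each match in capitals, RAB25 at chr1:156061010-156061159 (plus strand) and AP1M2 at chr19:10587313-10587462 (minus strand).
RAB25: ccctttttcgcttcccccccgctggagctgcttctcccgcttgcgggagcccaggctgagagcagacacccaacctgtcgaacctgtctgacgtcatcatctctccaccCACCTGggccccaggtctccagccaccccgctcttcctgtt
AP1M2: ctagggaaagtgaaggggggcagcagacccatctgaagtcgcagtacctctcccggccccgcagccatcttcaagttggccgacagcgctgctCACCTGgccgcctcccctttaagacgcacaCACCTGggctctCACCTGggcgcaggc
RAB25 has 1 match in these bases and AP1M2 has 3. A match is a description of the sequence only. The factors themselves showed no common change. ZEB1 stood at 2.73, 2.15 and 2.17 against 1.95, 2.37 and 1.90 (log2 fold change 0.28, SE 0.17, adjusted p = 0.228), and SNAI1 at 2.41, 2.64 and 2.95 against 3.13, 2.96 and 3.15 (-0.42, SE 0.18, adjusted p = 0.0906). Of the 5 transcription factors of epithelial-mesenchymal transition that were measured 2 rose, TWIST1 and TWIST2. TWIST1 rose by 4.88 (SE 0.24, adjusted p = 7.03e-08) but only from between -6.11 and -5.51 to between -1.58 and -0.45, which is 0.58 on the log2(RPKM + 1) scale. TWIST2 stayed below 0 in all 6 libraries, and its log2 fold change of 1.08 was 0.59 without replicate 1 of the parental line.

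Keratin and desmosome genes fell as well, 11 of 22 (50%, against 12.7% of all genes) with 0 rising and a median log2 fold change of -1.09. Without replicate 1 the count was 12 and the median -1.36. KRT7, the major simple keratin of ovarian carcinoma, stood at 8.30, 8.11 and 8.43 in the parental line and at 5.79, 5.92 and 6.53 in Ov4Carbo, 4.61-fold lower (adjusted p = 5.9e-05). KRT17, a keratin of basal and activated epithelium, fell by 5.33 (SE 0.55) from between 3.80 and 4.80 to between -1.92 and -0.45. KRT23 fell by 3.81 (SE 0.56) and the plakin EPPK1 by 3.77 (SE 0.49). DSP, desmoplakin, was 2.42-fold lower, at 6.75, 6.15 and 6.32 against 7.59, 7.69 and 7.77. The simple keratins KRT8, KRT18 and KRT19 changed less, with log2 fold changes of -0.74 (SE 0.17), -0.90 (SE 0.14) and -0.60 (SE 0.25), none of which was called. KRT18 reached -1.01 without replicate 2 of the parental line. The differences were uneven, steepest for KRT17 and KRT23 and shallowest for KRT19 among these 6 keratins.

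More mesenchymal and matrix genes fell than rose. Of 37 measured 17 fell and 5 rose (59.5%, against 12.7% of all genes), with a median log2 fold change of -0.79. Without replicate 1 the counts were 18 and 4 and the median -0.95. The fall covered contractile genes (TAGLN, ACTA2, CNN1) and matrix (COL1A2, FBN2, THBS1, FN1). COL1A2, a chain of type I collagen, had a log2 fold change of -5.18 (SE 0.42), or -1.76 as log2(RPKM + 1). FBN2, a fibrillin of elastic microfibrils, stood at 2.31, 2.17 and 2.69 against 5.49, 5.82 and 6.11 (-3.42, SE 0.34, adjusted p = 1.47e-05). FN1, fibronectin, stood at -0.20, -2.08 and -0.72 against 1.49, 2.59 and 2.00 (-3.03, SE 0.41). THBS1, thrombospondin, fell by 3.17 (SE 0.56) and ACTA2, smooth muscle actin, by 3.66 (SE 0.31). VIM, vimentin, was high in both lines, between 7.32 and 8.24, and differed by -0.25 (SE 0.21, adjusted p = 0.391). CDH2, N-cadherin, stood at 4.44, 3.75 and 3.99 against 2.40, 3.66 and 3.56 (0.86, SE 0.30, adjusted p = 0.043), short of a call, and reached 1.01, 1.08 and 1.04 without replicate 2 of Ov4Carbo or replicate 2 or 3 of the parental line. The members that rose included SPARC, which was 22.5-fold higher, and the fibrillar collagen COL11A1, at 4.31, 4.12 and 4.98 against 2.31, 2.85 and 1.98 (2.09, SE 0.41, adjusted p = 0.00201).

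**Figure D2:**
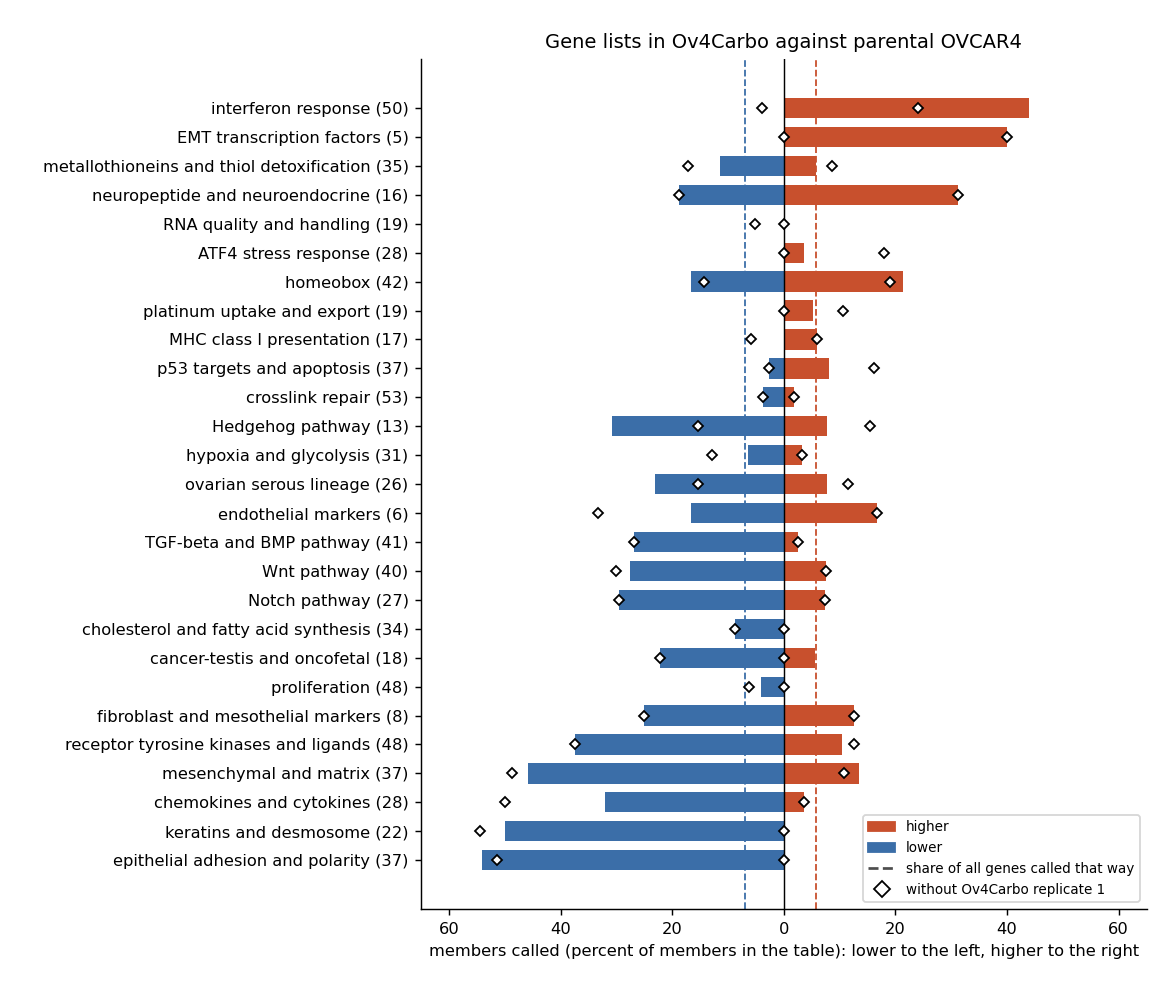
Share of the members of each gene list called lower (left, blue) and higher (right, red) in Ov4Carbo, in percent of the members in the table (number in brackets); dashed lines mark the 6.93% and 5.76% of all genes called each way, and diamonds the share without replicate 1. Epithelial, keratin, matrix and receptor tyrosine kinase lists extend to the left, and the interferon list to the right, where its share shrinks without replicate 1.

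Receptor tyrosine kinases, their ligands and modulators were called in 23 of 48 genes (47.9%, against 12.7% of all genes), 18 lower and 5 higher. The median log2 fold change was -0.57. Without replicate 1 the counts were 18 and 6. Among receptors, ERBB4 was 8.44-fold lower, at 2.44, 2.58 and 1.68 against 5.25, 5.19 and 5.49 (-3.08, SE 0.37, adjusted p = 7.1e-05). EGFR stood at 4.81, 4.56 and 5.19 against 5.36, 5.49 and 5.81, a difference of -0.70 (SE 0.27, adjusted p = 0.0591) that was not called, and ERBB2 differed by 0.38 (SE 0.19, adjusted p = 0.135). Among ligands, EFNB2, an ephrin of Eph receptors, fell by 2.16 (SE 0.32). IGFBP3, which binds insulin-like growth factors in the medium, was 13.3-fold lower, with a mean of 2.66 ± 0.94 (SD, n = 3) against 6.39 ± 0.34 (SD, n = 3) and no overlap. MACC1, a regulator of the MET receptor gene, and FLRT2, an FGF receptor-binding membrane protein, fell to the floor, with log2 fold changes of -8.07 (SE 0.53) and -7.66 (SE 0.64), or -2.42 and -1.61 as log2(RPKM + 1).

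In the Notch, Wnt, and TGF-β and BMP pathways more genes fell than rose. In the Notch pathway 8 of 27 genes fell and 2 rose (37%, against 12.7% of all genes). The counts were the same without replicate 1, and the median was -0.23. Among the receptors, NOTCH3 stood at 4.84, 4.45 and 4.35 in the parental line and at 0.84, 1.57 and 2.23 in Ov4Carbo, 8-fold lower (SE 0.29 on the log2 scale, adjusted p = 1.38e-05), whereas NOTCH1 differed by -0.61 (SE 0.23, adjusted p = 0.0555). The ligand JAG1 differed by -1.36 (SE 0.39, adjusted p = 0.0176), a call that was lost without replicate 3 of Ov4Carbo (-1.22) or replicate 2 or 3 of the parental line (-1.24 and -1.08). Of the transcriptional targets, HEY2 fell to the floor, with a log2 fold change of -9.06 (-3.12 on the log2(RPKM + 1) scale), while HEY1 was called higher (1.02, SE 0.33, adjusted p = 0.0305), at 2.03, 2.01 and 2.52 against 0.87, 0.83 and 1.79, with 1.10 without replicate 1 of Ov4Carbo and 0.77 as log2(RPKM + 1). DTX4, a regulator of Notch trafficking, fell by 1.71 (SE 0.24).

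The Hedgehog pathway changed its transcription factors in opposite directions. GLI3, which acts mainly as a repressor, rose from -1.04, -0.75 and -1.55 to 2.93, 3.33 and 3.28 (4.29, SE 0.18, adjusted p = 1.81e-08). GLI2, the main activator, fell from -0.25, 0.24 and 0.11 to -2.47, -2.32 and -1.94 (-2.28, SE 0.25, adjusted p = 3.22e-05). The receptor PTCH1, itself a target of the pathway, fell by 1.15 (SE 0.21), and by 0.97 without replicate 3 of the parental line. GLI1, another target, lay at -4.25 in replicate 1 and at -1.19 and -0.71 in replicates 2 and 3, against -2.31, -3.26 and -2.73, a difference of 0.72 (SE 0.69, adjusted p = 0.443) that became 1.82 (adjusted p = 0.00131) without replicate 1. Of 13 genes in the list 4 fell and 1 rose (38.5%, against 12.7% of all genes). Leaving out replicate 1 gave 2 in each direction. As log2(RPKM + 1), GLI3 alone was called.

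In the Wnt pathway 11 of 40 genes fell and 3 rose (35%, against 12.7% of all genes), with a median of -0.21. Without replicate 1 the counts were 12 and 3. The ligands WNT5A and WNT7B fell by 2.32 (SE 0.19) and 2.26 (SE 0.27), and the receptor FZD8 by 2.30 (SE 0.39). WNT5A stood at 1.48, 1.46 and 1.37 against 3.29, 4.30 and 3.67. Its receptor ROR2 rose from -1.24, -1.63 and -0.58 to 2.37, 2.33 and 1.66 (3.27, SE 0.28, adjusted p = 4.11e-06). The secreted inhibitor SFRP1 fell by 3.42 (SE 0.28), while the inhibitor SHISA3, which retains Frizzled receptors in the endoplasmic reticulum, rose as given above. AXIN2, a common target of the pathway, fell by 1.91 (SE 0.31). CTNNB1, β-catenin, differed by -0.55 (SE 0.15, adjusted p = 0.0157), short of a call.

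Of 41 genes of the TGF-β and BMP pathway 11 fell and 1 rose (29.3%, against 12.7% of all genes). The counts were the same without replicate 1, but the gene that rose was another one, and 0 rose in both. The ligand TGFB2 fell by 4.32 (SE 0.31), from 0.88, 1.73 and 1.29 to -3.19, -3.40 and -2.46, or -1.63 as log2(RPKM + 1). The BMP antagonists GREM1 and NOG fell by 6.43 (SE 0.78) and 3.90 (SE 0.72). GREM1 stood at -0.97, -4.47 and -3.52 against 4.09, 3.95 and 2.30, with replicate 1 the highest. FSTL1, a secreted activin and BMP binding protein, stood at 4.68, 3.44 and 3.86 against 6.72, 6.93 and 7.26 (-2.98, SE 0.36), and LTBP2, a matrix protein of the latent TGF-β binding family, fell by 2.83 (SE 0.17). The mediator SMAD3 differed by -0.24 (SE 0.16, adjusted p = 0.278).

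Neuropeptide and neuroendocrine genes were called in 8 of 16 (50%, against 12.7% of all genes), 5 higher and 3 lower, with or without replicate 1. Besides SST these included CHGA, chromogranin A of secretory granules, which stood at 1.36, 2.85 and 2.33 against -2.95, -2.57 and -4.86 (5.64, SE 0.57, adjusted p = 1.68e-05, or 2.34 as log2(RPKM + 1)), and UCHL1, a neuronal deubiquitinase, which was 3.04-fold higher at 6.83, 6.73 and 6.67 against 5.44, 5.13 and 4.84. NCAM1, a neural adhesion molecule, fell by 2.61 (SE 0.30), so the members did not move together. The other 26 genes of the list had no value here.

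Homeobox genes were called in 16 of 42 (38.1%, against 12.7% of all genes), 9 higher and 7 lower. Without replicate 1 there were 8 higher and 6 lower. Of the HOXA cluster, whose posterior members pattern the Müllerian duct, HOXA2, HOXA3 and HOXA11 rose, by 1.57 (SE 0.31), 1.08 (SE 0.15) and 1.76 (SE 0.17). Without replicate 1 of the parental line the value for HOXA3 was 0.97. HOXA11 lay at 1.14, 1.19 and 1.19 in Ov4Carbo and at -1.05, -0.55 and -0.15 in the parental line. MSX1, a homeobox factor of the developing limb and face, rose by 1.45 (SE 0.21). DLX3, a factor of stratified epithelium, fell by 1.75 (SE 0.27). Among genes of the ovarian serous lineage 6 of 26 fell and 2 rose (30.8%), or 4 and 3 without replicate 1. GATA6 fell by 1.55 (SE 0.30) and KLK10, a kallikrein protease, by 1.26 (SE 0.29), whereas MUC16, the CA125 antigen, was uneven, at 3.32, 4.70 and 3.66 against 5.60, 4.12 and 4.07 (-0.70, SE 0.49, adjusted p = 0.294). Of 18 cancer-testis and oncofetal genes 4 fell, ARMCX2 among them, and 1 rose (27.8%), against 4 and 0 without replicate 1.

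Of 19 genes of platinum uptake and export 1 rose and 0 fell (5.26%, against 12.7% of all genes), and 2 rose without replicate 1. The gene that rose was SLC47A1, the MATE1 exporter of organic cations, at 1.45, 1.14 and 1.18 against -2.22, -0.54 and -1.16 (2.56, SE 0.31, adjusted p = 7.61e-05). The copper transporter SLC31A1, an uptake route for platinum, stood at 3.66, 3.35 and 4.16 against 3.77, 3.62 and 3.62, a difference of 0.05 (SE 0.17, adjusted p = 0.837). The copper exporters ATP7A and ATP7B differed by -0.02 (SE 0.15) and 0.30 (SE 0.21), and the drug exporter ABCC1 by -0.28 (SE 0.10), none past the limit for a call. Among the 6 libraries compared, the efflux pump gene ABCB1 was near the floor except in replicate 1 of Ov4Carbo, where it reached -0.41. Its difference of 2.08 (SE 1.24, adjusted p = 0.215) was -0.06 without that library, and 0.27 as log2(RPKM + 1) with it. In the other resistant lines ABCB1 stood at 2.41, 2.71 and 2.94 in Ov4Carbo7, with means of -6.19 in Ov4Carbo4 and -6.28 in Ov4Cis.

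Metallothioneins are cysteine-rich proteins that bind metals including platinum. Of the 4 in the list that had values 3 fell, MT1E, MT1F and MT2A, while MT1X differed by -0.56 (SE 0.28, adjusted p = 0.147). The other metallothioneins of the list had no value here. MT1E was 20.5-fold lower, at 1.00, 0.74 and -0.45 against 5.16, 4.68 and 4.53, MT1F fell by 2.09 (SE 0.36), and MT2A, the most abundant of them, stood at 5.17, 4.81 and 3.64 against 6.68, 6.37 and 5.79, 3.35-fold lower. These genes are near-identical, so reads may be divided unequally among them, and their single values are uncertain. GSTM3, a glutathione transferase, fell by 1.33 (SE 0.15), and GSTP1, the most abundant one, differed by -0.59 (SE 0.15), short of a call. In the list of metallothioneins and thiol detoxification 4 of 35 genes fell and 2 rose (17.1%, against 12.7% of all genes). The median was 0.38, and without replicate 1 the counts were 6 and 3.

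DNA crosslink repair genes were called in 3 of 53 (5.66%, against 12.7% of all genes), with a median of 0.04. Of the 53, 52 had a mean of log2 RPKM 1 or more over all 15 samples. At that level 6.02% of genes were called, close to the share of the list. The same counts of repair genes were found without replicate 1. BRCA1 was higher by 1.00 (SE 0.14, adjusted p = 0.000172), at the limit for a call, with 3.15, 3.26 and 3.55 against 2.32, 2.20 and 2.45. Its call was lost without replicate 3 of Ov4Carbo (0.89) or replicate 1 or 2 of the parental line (1.00 and 0.94). BARD1, its binding partner, went the other way, at 2.23, 2.06 and 1.94 against 3.09, 2.99 and 3.19 (-1.01, SE 0.12, adjusted p = 4.9e-05), with -0.95 and -0.96 without replicate 3 of Ov4Carbo or of the parental line. REV3L, the catalytic subunit of the translesion polymerase zeta, fell by 1.14 (SE 0.13). FANCD2, the centre of the Fanconi pathway, differed by 0.12 (SE 0.09, adjusted p = 0.31). Among p53 targets and apoptosis genes 3 of 37 rose and 1 fell (10.8%, against 12.7% of all genes). Of the 37, 32 had a mean of log2 RPKM 1 or more. Without replicate 1 the counts were 6 and 1, and only 1 gene rose both with and without it. CDKN1A, encoding p21, was spread widely in both lines, at 2.74, 3.57 and 4.87 against 1.86, 3.90 and 2.05 (1.13, SE 0.74, adjusted p = 0.259), and was not called.

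Proliferation genes were a little lower, with a median of -0.30 and 10 of 48 above 0 in sign. Only CDK6 and CCNE1 were called, both lower (4.17% against 12.7% of all genes). All 48 had a mean of log2 RPKM 1 or more, a level at which 6.02% of genes were called. Without replicate 1 the median was -0.42 and 3 fell. CCNE1, the cyclin that drives entry into S phase and is often amplified in serous cancer, stood at 5.46, 4.93 and 4.78 against 6.32, 6.26 and 6.42, 2.42-fold lower. CDK6, a G1 kinase, fell by 1.54 (SE 0.24). MKI67 differed by -0.63 (SE 0.16, adjusted p = 0.00906), with the groups apart. Of 31 hypoxia and glycolysis genes 2 fell and 1 rose (9.68%, against 12.7% of all genes), with a median of -0.02. Here 28 of the 31 were at that level. Without replicate 1, 4 fell and 1 rose, with a median of -0.19, and HIF1A and NDRG1 were called at -1.05 and -1.62. EPAS1, the hypoxia-inducible factor 2α, stood at 3.57, 1.54 and 3.05 against 5.46, 5.55 and 4.77 (-2.54, SE 0.40), and BNIP3, a mitophagy receptor, rose by 1.29 (SE 0.16). Of 34 genes of cholesterol and fatty acid synthesis, all with a mean of log2 RPKM 1 or more, 3 fell and 0 rose. This was 8.82%, against 12.7% of all genes and 6.02% of genes at that level, with a median of -0.24. The same counts were found without replicate 1, with a median of -0.16.

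Chemokines and cytokines fell, 9 of 28 with 1 rising (35.7% called, against 12.7% of all genes) and a median of -0.82. Without replicate 1, 14 fell, with a median of -1.23. CCL2, a monocyte attractant, stood at 4.50, 4.20 and 3.06 against 5.22, 5.73 and 5.80 (-1.66, SE 0.33). CXCL8, or interleukin 8, fell by 1.29 (SE 0.24), IL6 by 2.80 (SE 0.60), the alarmin IL33 by 3.55 (SE 0.42) and CXCL16 by 1.74 (SE 0.32). CCL5, a chemokine also induced by interferon, was the member that rose, from between -3.64 and -2.88 to 0.56, 1.05 and -0.43 (3.64, SE 0.48, adjusted p = 0.000133, or 1.09 as log2(RPKM + 1)).

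Interferon-stimulated genes were higher in Ov4Carbo, and the size of the rise depended on the library. Cells that sense viral nucleic acid or interferon assemble the factor ISGF3, which binds a response element in the promoters of antiviral genes. Of 50 genes 22 rose and 0 fell, with a median log2 fold change of 1.06, where 5.76% of all genes rose. Without replicate 1 the counts were 12 higher and 2 lower and the median 0.48, with 12 genes higher in both, and in replicate 1 alone the median difference from the parental mean was 2.09. The summed level of the list was 1610 RPKM in replicate 1, 777 and 698 in replicates 2 and 3, and 572 to 613 in the parental libraries.

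Promoters of this list were searched for the core of that element, GAAA followed by any 2 bases and GAAA again, on both strands, where 2 matches may overlap. It occurred in 12 of 17 windows of members that rose and in 13 of 23 of members not called, against 297 of 11161 genes of the table (2.66%). The 150 bases before the start of 4 members that rose are shown, with the matches in capitals, which read TTTC, 2 bases and TTTC where the match is on the opposite strand. They are IFIT1 at chr10:89392473-89392622, ISG15 at chr1:1013347-1013496, IFI44 at chr1:78649639-78649788 and RTP4 at chr3:187368235-187368384, all on the plus strand of GRCh38.p14.
IFIT1: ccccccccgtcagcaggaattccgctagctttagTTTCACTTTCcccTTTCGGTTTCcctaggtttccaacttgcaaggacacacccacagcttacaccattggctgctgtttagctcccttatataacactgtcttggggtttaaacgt
ISG15: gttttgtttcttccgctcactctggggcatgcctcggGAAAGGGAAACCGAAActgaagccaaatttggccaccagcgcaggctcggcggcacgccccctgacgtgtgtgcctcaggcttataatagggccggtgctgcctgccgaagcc
IFI44: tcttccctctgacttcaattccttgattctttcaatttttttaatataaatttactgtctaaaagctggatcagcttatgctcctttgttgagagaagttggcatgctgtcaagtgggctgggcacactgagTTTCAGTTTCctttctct
RTP4: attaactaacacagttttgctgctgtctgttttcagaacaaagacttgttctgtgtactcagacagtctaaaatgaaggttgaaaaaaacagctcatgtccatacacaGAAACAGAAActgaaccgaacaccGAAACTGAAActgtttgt
IFIT1, ISG15 and RTP4 have 2 matches each in these bases and IFI44 has 1. The 2 matches of ISG15 overlap.

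Expression of these 4 genes shows how the libraries differed. IFIT1, which binds viral RNA caps, stood at 1.27, 1.29 and 1.36 in the parental line and at 5.28, 3.53 and 2.64 in Ov4Carbo (2.51, SE 0.49, adjusted p = 0.00217, and 1.78 without replicate 1, adjusted p = 0.00109). IFI44, an interferon-induced GTP-binding protein, stood at 4.34, 2.01 and 1.71 against -0.30, -0.36 and -0.06 (2.93, SE 0.51, and 2.10 without replicate 1). RTP4, a receptor chaperone and interferon effector, rose by 4.07 (SE 0.35), or 1.14 as log2(RPKM + 1), from below -3 to 1.11, 0.40 and -0.20. In these 3 genes replicates 2 and 3 also lay above all parental values. ISG15, the ubiquitin-like modifier, stood at 6.86, 6.01 and 5.14 against 4.84, 4.72 and 4.71, and its log2 fold change of 1.25 (SE 0.32) was 0.82 without replicate 1, below the limit for a call.

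The synthetases OAS1 and OASL rose by 3.77 (SE 0.66) and 3.11 (SE 0.41), and by 2.72 and 2.79 without replicate 1. The calls of other members were lost without replicate 1. MX1, an antiviral GTPase, stood at 5.76 in replicate 1, 2.49 and 2.37 in replicates 2 and 3, and 1.16, 1.56 and 1.42 in the parental line. Its log2 fold change of 2.16 (adjusted p = 0.0381) was 1.05 (adjusted p = 0.0675) without that library, and the call was also lost in each fit that left out a parental replicate (2.05 to 2.25). IFI6 had 2.32 (adjusted p = 0.0255), and 1.34 (adjusted p = 0.0593) without it, and lost its call without parental replicate 1 or 2 too (2.02 and 2.10). In MX1 replicates 2 and 3 still lay above all parental values, whereas in IFI6 replicate 3, at 2.83, lay below parental replicate 3, at 3.02. Of 17 genes of MHC class I presentation 1 rose, HLA-F, by 1.73 (SE 0.34), and 0 fell, where 5.76% of all genes rose. The median of the 17 was 0.06. Without replicate 1, HLA-F rose by 1.35 and 1 gene fell, ERAP1, a peptidase that trims presented peptides (-1.30), and the median was -0.22. In replicate 1 alone the median difference from the parental mean was 0.73. Genes of the HLA family share sequence and their single values are uncertain.

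A direct comparison of replicate 1 with replicates 2 and 3 called 481 genes (2.9%), 201 higher (1.21%) and 280 lower (1.69%). It compares libraries of 1 line and assumes that the lone library varies like the others. Of the 50 interferon genes 26 were higher in replicate 1 and 0 lower, with a median difference of 1.72, and 49 lay above in sign. Of 17 MHC class I genes 5 were higher, and of 28 chemokines and cytokines 4. One member of the chemokine and cytokine list, the iron carrier LCN2, was higher by 3.71 (SE 0.72). Outside these lists the largest difference upward was in PLIN2, the coat protein of lipid droplets, by 6.24 (SE 0.73). C2CD4A followed with 4.99 (SE 1.07) and the phosphatase PTPRD with 3.97 (SE 0.46). Only called genes at log2 RPKM 1 or more in replicate 1 or as the mean of replicates 2 and 3 were ranked. C2CD4A stood at 1.84 in replicate 1 and at -2.38 and -3.92 in replicates 2 and 3, against 4.83, 4.88 and 3.38 in Ov4Carbo7 -3.15, -4.47 and -2.85 in Ov4Carbo4, 0.98, -1.75 and -1.08 in Ov4Cis and 0.68, 0.06 and 1.03 in the parental line. PTPRD stood at 1.57 in replicate 1, against -2.36 and -2.44, with 1.59, 2.19 and 1.95 in Ov4Carbo7, -1.87, -1.06 and -2.48 in Ov4Carbo4, 6.40, 6.25 and 6.46 in Ov4Cis and -0.35, 0.18 and 0.42 in the parental line. Neither gene was called against the parental line with all replicates, and without replicate 1 both were called lower, with log2 fold changes of -3.74 for C2CD4A and -2.49 for PTPRD. PLIN2 was called lower in Ov4Carbo against the parental line (-3.58, adjusted p = 0.0467), by 5.66 without replicate 1, and the call was lost in each fit that left out any 1 of the other 5 libraries (-3.85 to -2.29). Downward, at the same level limit, the largest differences were in the glycine transporter SLC6A9 (-3.93, SE 0.90), the MYC family gene MYCL (-2.56, SE 0.50) and the pseudogene ATP5MFP5 (-2.42, SE 0.59).

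The genes of the ATF4 stress response, which cells induce when amino acids are short or the endoplasmic reticulum is stressed, went the other way. Of 28 genes 1 rose over all 3 replicates (3.57%, against 5.76% of all genes), with a median of 0.21. Without replicate 1, 5 rose, with a median of 0.56, where 7.35% of all genes rose. All 28 had a mean of log2 RPKM 1 or more, a level at which 2.7% of genes rose over all 3 replicates. The median difference of replicate 1 from replicates 2 and 3 was -0.95, and 3 of the 28 genes lay above in sign. DDIT3, the factor CHOP, stood at 3.85 in replicate 1 and at 5.80 and 5.73 in replicates 2 and 3, and its difference of 1.39 (SE 0.53, adjusted p = 0.0618) became 2.03 (adjusted p = 0.00456) without it. TRIB3 and CHAC1, targets of that factor, stood at 4.25 and 1.58 in replicate 1, and at 6.03 and 7.16, and 4.62 and 4.29, in replicates 2 and 3. They were called without replicate 1 only, at 1.89 and 1.81 against 1.11 and 0.85 with it. The parental libraries differed among themselves too, at 6.04, 4.44 and 3.64 for TRIB3, and without parental replicate 1 the value for DDIT3 was 1.88 (adjusted p = 0.0191). NUPR1, a stress-induced nuclear protein, was called over all replicates (2.25, SE 0.66, adjusted p = 0.0202), although parental replicate 1 at 6.33 equalled Ov4Carbo replicate 1 at 6.33. Its call was lost in 4 of the 6 fits that left out a replicate, those without replicate 2 or 3 of Ov4Carbo (2.02 and 1.98) or replicate 2 or 3 of the parental line (1.96 and 1.91). Of 19 genes of RNA quality and handling, which include early response and heat shock genes, 12 lay above 0 in sign with a median of 0.23, and 1 was called without replicate 1, against 0 with it. The part of the title series in these differences was not tested, since only Ov4Carbo occurs in both series.

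**Figure D3:**
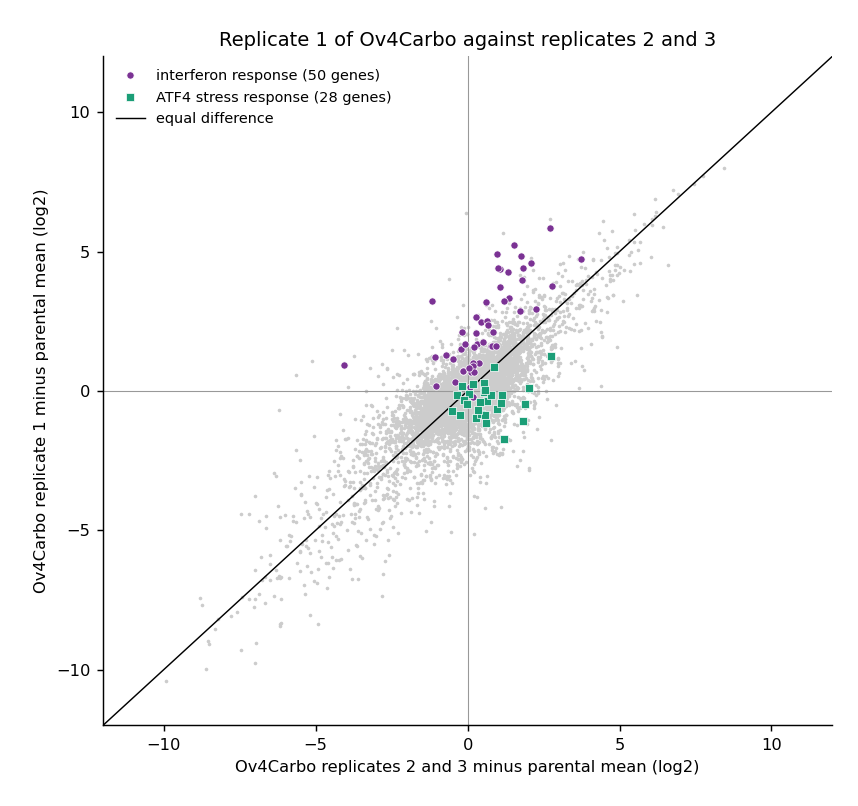
Difference of replicate 1 of Ov4Carbo from the parental mean (vertical axis, log2) against that of the mean of replicates 2 and 3 (horizontal axis, log2), 1 grey point per gene. Points of the interferon response list (purple circles) lie mostly above the diagonal of equal difference, with 49 of 50 above it, and those of the ATF4 stress response list (green squares) mostly below it, with 3 of 28 above.

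Differences were also unevenly spread over chromosomes. Gene order came from GENCODE release 29, and only the 12037 genes with a mean of log2 RPKM 1 or more were used. The median log2 fold change lay between -0.20 and 0.15 on every chromosome but chromosome 17, where it was 0.32 over 685 genes, of which 73.1% were higher in sign. On that chromosome 50 genes rose and 11 fell. In blocks of 40 consecutive genes the median lay between -0.02 and 0.07 in the 7 blocks from RFLNB to ERBB2, and between 0.35 and 0.77 in the 11 blocks from MIEN1 to METRNL, the last of which holds 5 genes. The 280 genes of the first stretch had a median of 0.02, and the 405 genes of the second a median of 0.53, 1.44-fold, with 352 (86.9%) higher in sign. In the second stretch 47 genes rose (11.6%) and 4 fell, where 2.7% of genes of this level rose. The step was chosen after the values were seen and is a description.

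The shift was alike in every library. The median of the second stretch was 0.53 in replicate 1, 0.52 in replicate 2 and 0.55 in replicate 3, each against the parental mean. In the other resistant lines it was 0.54 in Ov4Cis, 0.57 in Ov4Carbo4 and 0.57 in Ov4Carbo7, in comparisons that share the parental samples. In Ov4Cis the block before the step, from AK4P1 to ERBB2, already had a median of 0.43, where it was 0.07 in Ov4Carbo, 0.08 in Ov4Carbo4 and 0.02 in Ov4Carbo7. At the border, ERBB2, the HER2 receptor gene, differed by 0.38, with a mean of 4.48 ± 0.45 (SD, n = 3) against 4.10 ± 0.18 (SD, n = 3) and overlapping groups, while its neighbour MIEN1, a membrane-anchored signalling adaptor, stood at 5.28, 5.90 and 5.43 against 4.62, 4.37 and 4.24 (1.12, SE 0.17, adjusted p = 0.000434, and 0.94 without replicate 2 of Ov4Carbo). BRCA1, TIMP2 and the homeobox gene HOXB13 (1.16, SE 0.12) lie in the same stretch. Among genes of the stretch with a mean of log2 RPKM 1 or more, TMEM101, a membrane protein, rose most. It stood at 5.30, 5.78 and 4.91 against 2.61, 0.79 and 1.00 (3.86, SE 0.48). The 4 of these genes that fell, named after their values were seen, were ITGB3, GJC1, CYGB and NOTUM. Chromosome 17 genes of a lower mean were not counted. Among them were KRT17, KRT23, AXIN2 and DLX3, called lower, and CCL5, called higher. DNA copy number was not analysed here, and its part in the shift was not tested.

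**Figure D4:**
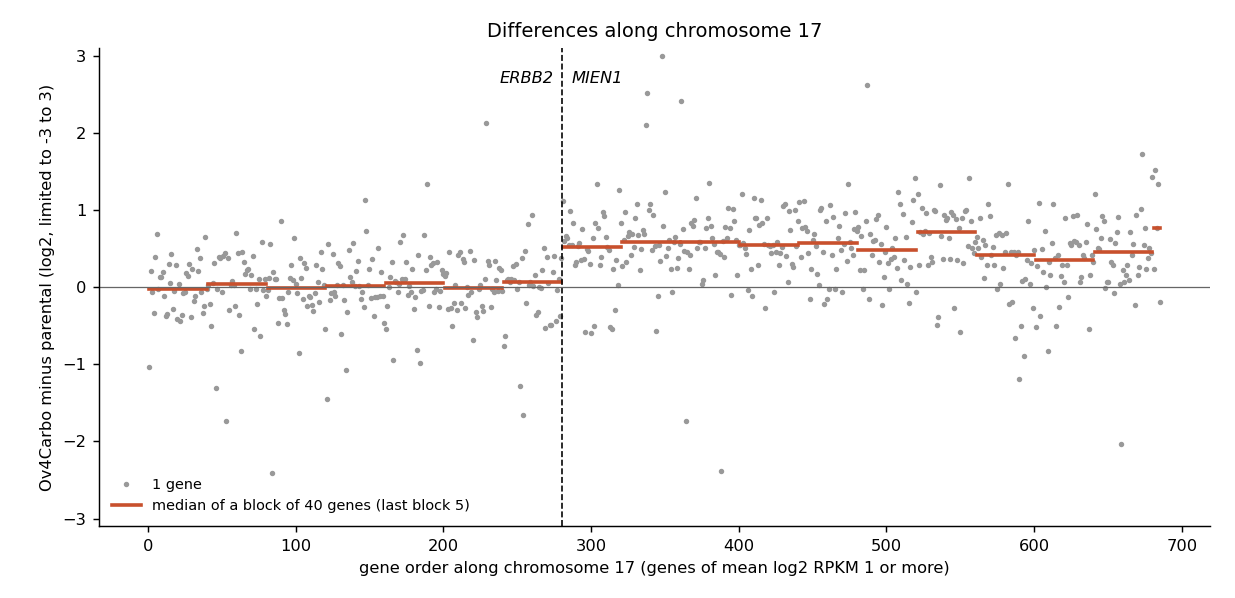
Log2 fold change of Ov4Carbo against the parental line (vertical axis, values limited to -3 to 3) for 685 genes in their order along chromosome 17 (horizontal axis); red lines are medians of blocks. The medians stay within -0.02 to 0.07 up to ERBB2 and within 0.35 to 0.77 from MIEN1 on.

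Finally, Ov4Carbo was compared with each of the other 4 lines. In all 4 comparisons, which share the Ov4Carbo samples, 174 genes (1.05%) were called in 1 direction, 33 higher (0.199%) and 141 lower (0.849%). Without replicate 1 there were 283. Of the 174, 164 were also called against the parental line without replicate 1. On the log2(RPKM + 1) scale 26 remained past the limits.

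Of the genes highest in Ov4Carbo, APBB1IP, an adaptor of integrin activation, stood at 1.88, 1.74 and 1.98, with a rise of 2.05 as log2(RPKM + 1) over the parental values of -2.45, -3.12 and -3.58, and with values between -6.69 and -1.38 in the other 3 resistant lines. SHISA3 stood at 4.34, 4.94 and 4.63, and its nearest line was Ov4Carbo7 at 2.71, 2.99 and 2.35, a difference of 1.95 (adjusted p = 0.000219). NR3C2, the mineralocorticoid receptor, stood at 2.20, 2.26 and 2.56, above 0.25, 0.72 and 1.07 in the parental line and between -4.01 and 0.46 elsewhere. ZNF711, an X-linked zinc finger protein, and MALL, a raft protein, had smallest differences of 1.71 and 1.61, both against the parental line. LAMP3, a lysosomal membrane protein, was uneven, at 1.48, 1.03 and 3.19, and its call against the parental line was lost without replicate 3 of Ov4Carbo (1.18) or parental replicate 2 or 3 (1.76 and 1.42).

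Among genes lowest in Ov4Carbo, NOG, encoding the BMP antagonist noggin, stood at -0.66, -4.27 and -3.87, below every value of the other lines, which lay between 0.68 and 2.98. PDE1C, a calmodulin-dependent phosphodiesterase, stood at -2.63, -5.31 and -5.51 against -0.74 or higher in all other libraries, and its change against the parental line was -2.06 as log2(RPKM + 1). ENC1, an actin-associated protein, stood at 2.14, 0.36 and 0.19 against 3.54 to 5.91. In these 3 genes replicate 1 was the highest Ov4Carbo value. TACR1 stood at -5.21, -6.45 and -6.69, and COL8A1, a short-chain collagen, at -1.40, -4.37 and -2.66, both below the values of the other 4 lines. ST8SIA2, a polysialyltransferase, was low in every line (1.36 at most), and on the log2(RPKM + 1) scale its change against the parental line was -0.16.

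**Figure D5:**
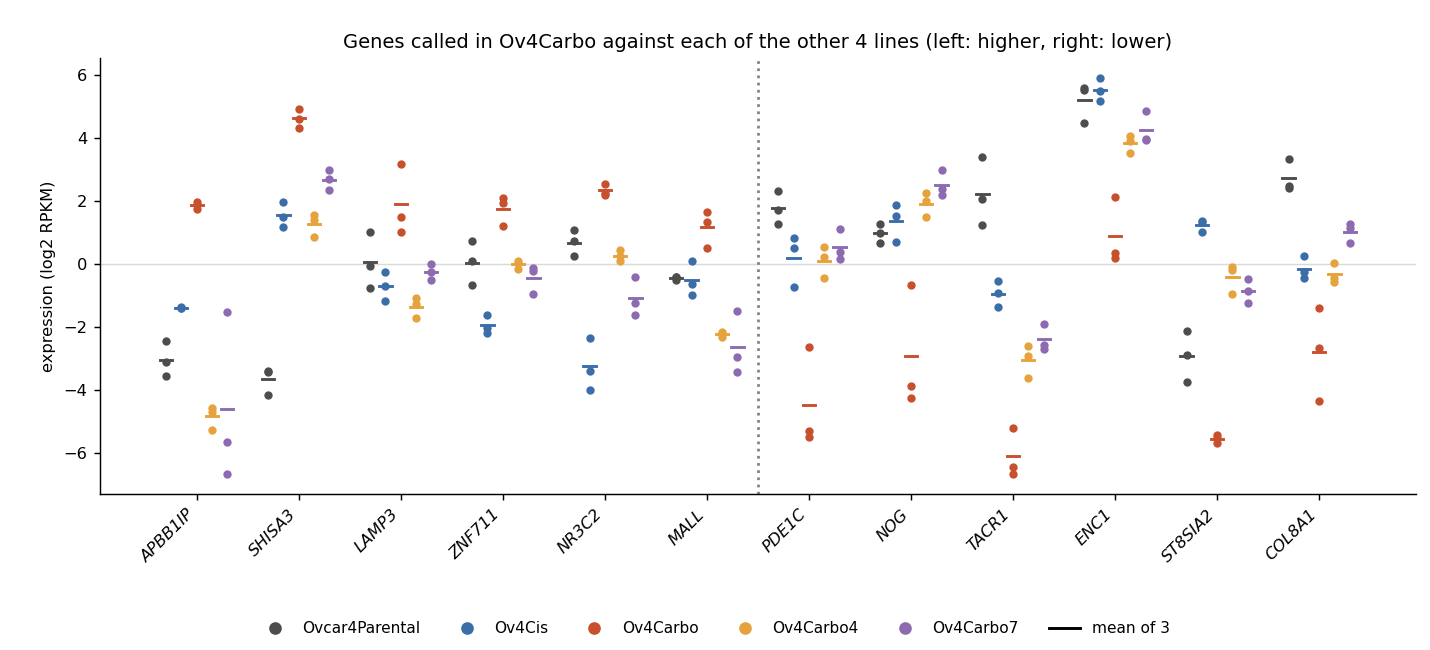
Expression in log2 RPKM (vertical axis) of 12 genes called in Ov4Carbo against each of the other 4 lines; points are the 3 replicates of a line and bars their mean. The red points of Ov4Carbo are the highest group in the 6 genes on the left and the lowest in the 6 on the right, with uneven values in LAMP3, NOG and PDE1C.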

How the data were processed

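RNA captured by its poly(A) tail was sequenced from 15 samples of 5 lines, 3 per line. The authors deposited 1 table of log2 RPKM values normalized by cqn, per the file headers and labels, with 16604 genes and no missing value. Per the submitters' processing notes BWA 0.7.15-r1140, HTSeq and the hg19/GRCh37 build were used, with no order given. Read depth per sample was not given in the sources used here, so no counting interval was computed. Samples were grouped by their cell line labels.

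A linear model was fitted to the deposited log2 values with limma 3.58.1 in R 4.3.3, over all 15 samples with 1 coefficient per line, two-sided, with Benjamini-Hochberg adjustment over all genes. Calls needed an adjusted p under 0.05 with a log2 fold change of 1 or more in size. A further fit gave replicate 1 of Ov4Carbo its own coefficient. Tested on simulated data for the comparison with the parental line, the model recovered 182 of 200 genes changed by 2 on the log2 scale, with 7 false calls among 16604 genes. The simulated noise was normal and independent, with the same spread of a gene in every line. These figures therefore do not cover a library that stands apart, such as replicate 1 of Ov4Carbo, and do not measure the reliability of the calls.

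The compared lines and the 28 gene lists were chosen with earlier results of these data known, so lists are described by counts and medians and not tested. Named genes were the largest changes with non-overlapping groups and a higher mean of at least log2 RPKM 1 (8 each way, on both scales), up to 4 called members per list and direction, members needed to describe a list, and the 6 largest differences each way for replicate 1 and against the other 4 lines. Genes described by abundance and those on chromosome 17 were chosen after their values were seen. Chromosomes and gene order came from GENCODE release 29, and promoter sequences from RefSeq (GRCh38.p14). Alternatives changed the normalization, low-value filter, pseudocount, variance model, samples, threshold and title series, and left out each replicate in turn. Some genes are not reported here.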

Additional observations from a re-analysis of the deposited data

Results flagged for a closer look

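Some genes were called higher than the parental line in Ov4Carbo and lower in the cisplatin-selected line Ov4Cis, and the difference between the 2 resistant lines was itself past the threshold in limma. The comparisons with the parental line share its samples. COL11A1, a fibrillar collagen gene, was 9.87 log2 units higher in Ov4Carbo than in Ov4Cis (SE 0.41, adjusted p = 5.13e-09), with 2.09 for Ov4Carbo and -7.78 for Ov4Cis against the parental line. Its mean was near the floor in Ov4Cis (-5.40), so the size is uncertain. The carboplatin lines differed too, with means of -4.96 in Ov4Carbo4 and 5.34 in Ov4Carbo7. CALB1, which encodes a calcium-binding protein, was 9.54 log2 units higher in Ov4Carbo than in Ov4Cis (SE 0.39, adjusted p = 5.13e-09), with 4.09 for Ov4Carbo and -5.45 for Ov4Cis against the parental line. Its mean in Ov4Cis, -4.34, was also near the floor, so this size is uncertain too. ROBO1, a receptor of SLIT proteins, was 7.41 log2 units higher in Ov4Carbo than in Ov4Cis (SE 0.30, adjusted p = 4.41e-09), with 5.61 for Ov4Carbo and -1.80 for Ov4Cis against the parental line. NR3C2, the mineralocorticoid receptor gene, was 5.59 log2 units higher in Ov4Carbo than in Ov4Cis (SE 0.39, adjusted p = 4.78e-07), with 1.66 for Ov4Carbo and -3.93 for Ov4Cis against the parental line. ZNF711, a zinc finger gene on the X chromosome, was 3.70 log2 units higher in Ov4Carbo than in Ov4Cis (SE 0.34, adjusted p = 5.43e-06), with 1.71 for Ov4Carbo and -1.99 for Ov4Cis against the parental line. HEY1, a Notch target, and SMAD9, a BMP mediator, differed between the 2 lines by 2.23 and 2.85 log2 units. Their calls in Ov4Carbo against the parental line were less firm. HEY1 had 1.02 with all libraries, and 0.86 to 0.88 without replicate 3 of Ov4Carbo or replicate 1 or 2 of the parental line. SMAD9 had 1.03, and 0.83 to 0.99 without replicate 1 or 3 of Ov4Carbo or replicate 1 or 2 of the parental line.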

How the results depend on the processing

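The 2106 calls of Ov4Carbo against the parental line became 730 with a model fitted only to genes of mean log2 RPKM 1 or more, which tests fewer genes, and 790 with log2(RPKM + 1) values. With the model fitted only to the 6 samples compared, 1564 genes were called, so part of the calls rested on the spread in the other 9 samples. Leaving out 1 library at a time gave 1858 to 2527 calls, the highest without replicate 1 of Ov4Carbo. The 481 calls of replicate 1 against replicates 2 and 3 became 195 with that filter, 216 on the log2(RPKM + 1) scale and 320 after quantile normalization, where SLC6A9 and ATP5MFP5 lost their calls (adjusted p = 0.0554 and 0.0634). Leaving out a replicate was not run for that comparison. The 174 genes called against each of the other 4 lines became 30 with the filter, 26 on the log2(RPKM + 1) scale, 112 on the log2(RPKM + 0.1) scale and 96 at an adjusted p under 0.01, and leaving out 1 library gave 141 to 283. Apart from the filter, which tests fewer genes, the cause of these shifts was not tested. The labels do not tie replicate numbers of different lines to each other, and the samples were not treated as paired. Deviations of same-numbered libraries from their line means had correlations of -0.39, -0.13 and -0.22, and no library correlated best with its own number. Deviations within a line cancel out, so these correlations depend on each other and cannot settle whether libraries were paired. With the replicate block 2042 genes were called against the parental line, and 157 against each of the other lines. Over 200 named genes and 3134 values under the alternatives, 2936 kept their direction and side of the threshold, 171 lost and 18 gained a call, and 9 changed sign. The sign changes concerned genes that were not called. Without replicate 1 of Ov4Carbo, which equals a term for the title series, ABCB1 became -0.06 and ATF4 0.29. Over the fits that left out 1 library, ABCB1 ranged from -0.06 to 3.39, ATF4 from -0.35 to 0.29, ATP7A from -0.21 to 0.14, PAX8 from -0.14 to 0.09 and SLC31A1 from -0.17 to 0.24. Depth is unknown, so its limit on low genes cannot be given.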
